A study of Mus musculus with 4 samples.

Results

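The genes described here are 10 members of the circadian clock of the mouse: Arntl, Clock, Per1, Per2, Cry1, Nr1d1, Nr1d2, Bhlhe40, Tef and Dbp. They were found by gene symbol in the annotation of the array, and 12 probe sets of 12488 carried one of these symbols, which is 10 genes of the 8251 named on the array. Cry1 had 3 probe sets and each of the other genes had 1. Whole hearts of heterozygous mice, in 2 pools, were compared with whole hearts of wild-type mice, also in 2 pools, by hybridising total RNA to 1-colour oligonucleotide arrays. The gene in which the mice were heterozygous is not reported here. All 4 pools came from adult males of 8 to 16 weeks on a 129/Black Swiss background, and RNA of 5 hearts was pooled for each array. Nothing in the labels says that the pools of one genotype were separate sets of animals, so the errors here describe these pools only. The labels do not state the hour at which hearts were removed.

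The clock of mammalian cells is a feedback loop of transcription. ARNTL (also called BMAL1) and CLOCK pair and activate genes through E-box elements, among them the Per and Cry genes, whose proteins then repress that pair, and the Nr1d genes, whose proteins REV-ERB alpha and beta compete with ROR factors at other elements and hold Arntl transcription down. In peripheral tissues of the mouse, heart included, Arntl messenger RNA peaks around the end of night and the start of day, while Nr1d1, Nr1d2, Dbp, Tef, Per1, Per2 and Bhlhe40 peak in the course of the day or around dusk, Cry1 peaks late in the night, and Clock varies little.

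Promoter windows of RefSeq (mouse build GRCm38.p6, 250 bases before to 50 after the annotated start) held 13 windows for 8 of the 10 genes; Per2 and Bhlhe40 were not matched. The windows were searched on both strands for the E-box CACGTG, for its variant CACGTT, for the ROR core AGGTCA and for the D-box TTATGTAA or TTACGTAA, the element bound by DBP and TEF. Of the windows with matches, 5 are shown, chosen to give Arntl beside 3 genes that rose (Per1, Nr1d1, Tef) and Cry1, which did not pass; capitals mark the matches, which may read on the opposite strand.
Arntl, chr7:113207261-113207560, plus strand: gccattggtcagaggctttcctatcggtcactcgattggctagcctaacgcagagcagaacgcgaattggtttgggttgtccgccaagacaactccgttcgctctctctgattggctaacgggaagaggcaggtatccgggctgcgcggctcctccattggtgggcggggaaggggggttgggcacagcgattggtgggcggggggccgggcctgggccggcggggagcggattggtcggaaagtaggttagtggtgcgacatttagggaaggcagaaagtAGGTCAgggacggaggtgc
Per1, chr11:69098699-69098998, plus strand: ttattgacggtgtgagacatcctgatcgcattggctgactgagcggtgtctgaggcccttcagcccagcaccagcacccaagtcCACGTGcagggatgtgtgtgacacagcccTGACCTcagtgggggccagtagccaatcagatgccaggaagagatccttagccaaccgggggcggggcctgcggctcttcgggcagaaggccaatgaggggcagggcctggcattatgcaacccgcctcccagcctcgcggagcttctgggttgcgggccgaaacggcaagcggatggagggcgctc
Nr1d1, chr11:98775328-98775627, minus strand: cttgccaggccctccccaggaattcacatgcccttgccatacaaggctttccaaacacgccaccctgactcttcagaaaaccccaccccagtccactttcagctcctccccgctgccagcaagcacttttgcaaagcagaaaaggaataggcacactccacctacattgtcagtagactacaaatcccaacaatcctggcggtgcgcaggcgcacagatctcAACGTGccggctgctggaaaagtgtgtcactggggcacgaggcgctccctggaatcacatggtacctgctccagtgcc
Tef, chr15:81811164-81811463, plus strand: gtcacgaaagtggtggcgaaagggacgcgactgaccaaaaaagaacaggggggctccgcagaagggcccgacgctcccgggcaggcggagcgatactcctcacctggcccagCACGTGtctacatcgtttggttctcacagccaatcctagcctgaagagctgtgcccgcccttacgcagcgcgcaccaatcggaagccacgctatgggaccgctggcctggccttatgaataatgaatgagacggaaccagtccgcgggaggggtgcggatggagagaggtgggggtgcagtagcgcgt
Cry1, chr10:85185005-85185304, minus strand: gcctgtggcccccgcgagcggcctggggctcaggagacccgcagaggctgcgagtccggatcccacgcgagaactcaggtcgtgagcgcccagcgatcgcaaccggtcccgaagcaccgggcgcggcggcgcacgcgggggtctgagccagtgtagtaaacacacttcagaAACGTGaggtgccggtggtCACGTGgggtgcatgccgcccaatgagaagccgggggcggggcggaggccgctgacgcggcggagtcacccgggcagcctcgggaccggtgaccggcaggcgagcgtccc

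The Arntl window held AGGTCA starting 31 bases after the annotated start. The Per1 window held CACGTG, starting 166 bases before the start, and AGGTCA on the opposite strand, starting 137 bases before it. Tef had CACGTG in both of its windows, and Cry1 had CACGTG together with CACGTT on the opposite strand. In the Nr1d1 window CACGTT lay on the opposite strand, 28 bases before the start. Counting any window of a gene, 3 of the 8 genes had CACGTG, 2 had CACGTT, 4 had AGGTCA (Arntl, Clock, Nr1d2 and Per1) and none had the D-box in these windows. Over all 32851 promoter windows the shares were 7.15% for CACGTG, 4.685% for CACGTT, 16.3% for AGGTCA and 1.06% for the D-box. These shares are per window, whereas the counts are per gene, with 13 windows for the 8 genes, so they are not directly comparable. No match overlapped another, and a match in a short window is a string of letters and not a site shown to be bound.

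In the heterozygous hearts the activator gene Arntl was at 0.274 of its wild-type signal, while 6 genes that peak later in the day were 1.77-fold to 3.41-fold higher: Per1, Per2, Nr1d1, Nr1d2, Bhlhe40 and Tef. Clock, Cry1 and Dbp did not pass the threshold. Values are deposited linear signal intensities, errors of signals are SD over 2 pools, and log2 changes are heterozygous minus wild type with the standard error (SE) of a limma fit over 7454 tested probe sets. The SE of that fit draws on the spread of all tested probe sets and not on a gene's own pools alone. "Rose" and "fell" are used of genes past a Benjamini-Hochberg adjusted p of 0.05 in that fit. Of the 10 clock probe sets bright enough to be tested, 6 rose and 1 fell, where 17.9% of all tested probe sets were called higher and 20.4% lower (38.3% either way). These genes were chosen with this comparison known, so their values are a description, no p is given for them, and the count is not read against that background. The call count was 1 (Arntl) with no filter on dim probe sets, and 3 (Arntl and Cry1 lower, Per1 higher) with arrays centred on cardiomyocyte markers.

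**Figure D1:**
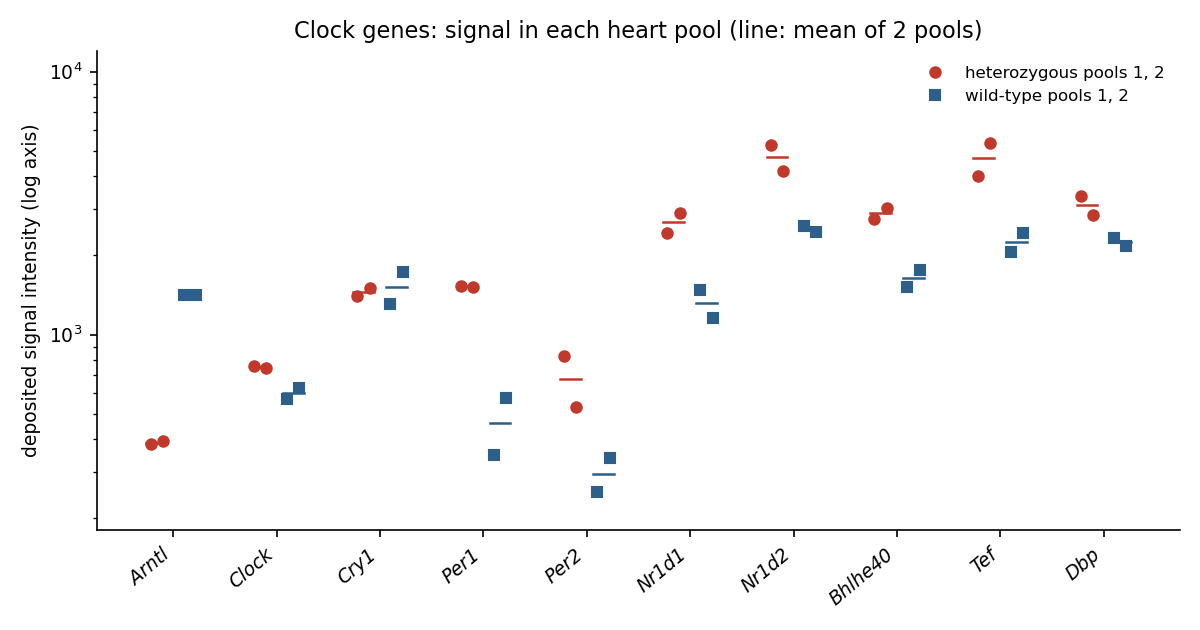
Signal of the brightest probe set of each clock gene in every pool, on a log axis; red circles are the 2 heterozygous pools, blue squares the 2 wild-type pools, and lines are means. The red circles of Arntl average 389 and its blue squares 1420, and for 8 of the other 9 genes both red circles lie above both blue squares, the exception being Cry1.

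Of the activators, Arntl had signals of 383.7 and 393.5 in the heterozygous pools and of 1419.9 and 1419.5 in the wild-type pools. The pools of each genotype lay almost on top of each other and far from those of the other genotype. Its mean was 389 ± 6.93 in heterozygous hearts and 1420 ± 0.283 in wild-type hearts (SD, n = 2 each), so that Arntl fell by 1.87 on the log2 scale (SE 0.21), 3.65-fold. Its log2 change was the 306th lowest of the 7454 tested. In the same pools 16 of 17 lymphocyte and thymus markers fell, with a summed signal of 18489 to 18829 in heterozygous hearts and of 143225 to 145931 in wild-type hearts; their part in the Arntl signal was not tested. In RNA of whole hearts, fewer cells of a type and less RNA per cell cannot be told apart. Clock, which encodes the partner of ARNTL, had signals of 762.7 and 746.8 in heterozygous pools, against 569.5 and 624.9 in wild-type pools. The pools did not overlap, but the log2 change of 0.34 (SE 0.23) did not pass. Centring arrays on cardiomyocyte markers gave -0.29. The log2 difference between Clock and Arntl within an array, which no scaling factor of the array can alter, was 2.21 larger in the heterozygous pools.

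Among the repressors of that pair, Per1 had signals of 1527.0 and 1523.0 in heterozygous pools and of 348.9 and 571.7 in wild-type pools. Per1 had the largest rise among the clock genes, 3.41-fold (log2 change 1.77, SE 0.27), the 30th highest of the 7454 tested, and the spread was in the wild-type pools, whose signals differed 1.64-fold. Per2 had signals of 826.0 and 529.3 in heterozygous pools and of 251.5 and 338.2 in wild-type pools, a 2.27-fold rise (log2 change 1.18, SE 0.35). Its pools did not overlap. Its SE was the largest among the 6 genes that rose, and its call ended without heterozygous pool 1 (log2 change 0.86) or wild-type pool 1 (0.97). Both Per proteins form complexes with CRY proteins that return to the nucleus.

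Cry1, the repressor that peaks latest, had signals of 1402.1 and 1500.4 in heterozygous pools, inside the range of 1312.3 and 1723.4 in wild-type pools. The log2 change of Cry1 was -0.05 (SE 0.19). This value comes from a probe set of the array's f class, whose probes can match related sequences. The other 2 Cry1 probe sets were too dim to be tested, with signals of 4.2 and 76.5 in heterozygous pools and 12.7 and 20.7 in wild-type pools on one. The other had signals of 7.6 and 11.5 in heterozygous pools and of 14.1 and 3.5 in wild-type pools. Of these 8 dim values, 7 lay below 36.4, the 10th percentile of all signals, and they give no direction.

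Both genes of the REV-ERB receptors, the repressors of Arntl transcription, rose. Nr1d1 had signals of 2442.4 and 2896.1 in heterozygous pools and of 1478.5 and 1157.0 in wild-type pools, a 2.03-fold rise (log2 change 1.02, SE 0.19). Nr1d2 had signals of 5250.3 and 4180.1 in heterozygous pools and of 2592.5 and 2465.0 in wild-type pools, and rose 1.85-fold (log2 change 0.89, SE 0.17). In both genes every heterozygous pool exceeded every wild-type pool. Bhlhe40 encodes DEC1, a basic helix-loop-helix protein that competes for E-boxes. It had signals of 2748.9 and 3026.6 in heterozygous pools and of 1514.1 and 1763.8 in wild-type pools, a 1.77-fold rise (log2 change 0.82, SE 0.17). The Bhlhe40 call ended without heterozygous pool 2 (log2 change 0.75), with no overlap of pools.

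Tef and Dbp encode PAR bZIP factors, which carry the rhythm to output genes through D-boxes. Tef had signals of 4024.2 and 5338.3 in heterozygous pools and of 2066.6 and 2424.0 in wild-type pools, and rose 2.07-fold (log2 change 1.05, SE 0.19). Dbp, often the most strongly rhythmic gene of peripheral tissue, had signals of 3355.6 and 2840.8 in heterozygous pools and of 2328.5 and 2172.6 in wild-type pools. Its pools did not overlap, but the log2 change of 0.46 (SE 0.16) did not pass on the deposited scale. Dbp passed as higher with arrays shifted to a common median (0.64) and under quantile normalization (0.52). With cardiomyocyte centring its log2 change was -0.17. In 8 of the 10 tested clock probe sets both heterozygous pools lay above both wild-type pools, as in 34.6% of all tested probe sets, and in 1 both lay below, as in 35.5%; together 9 of 10 showed no overlap, against 70.1% of all.

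**Figure D2:**
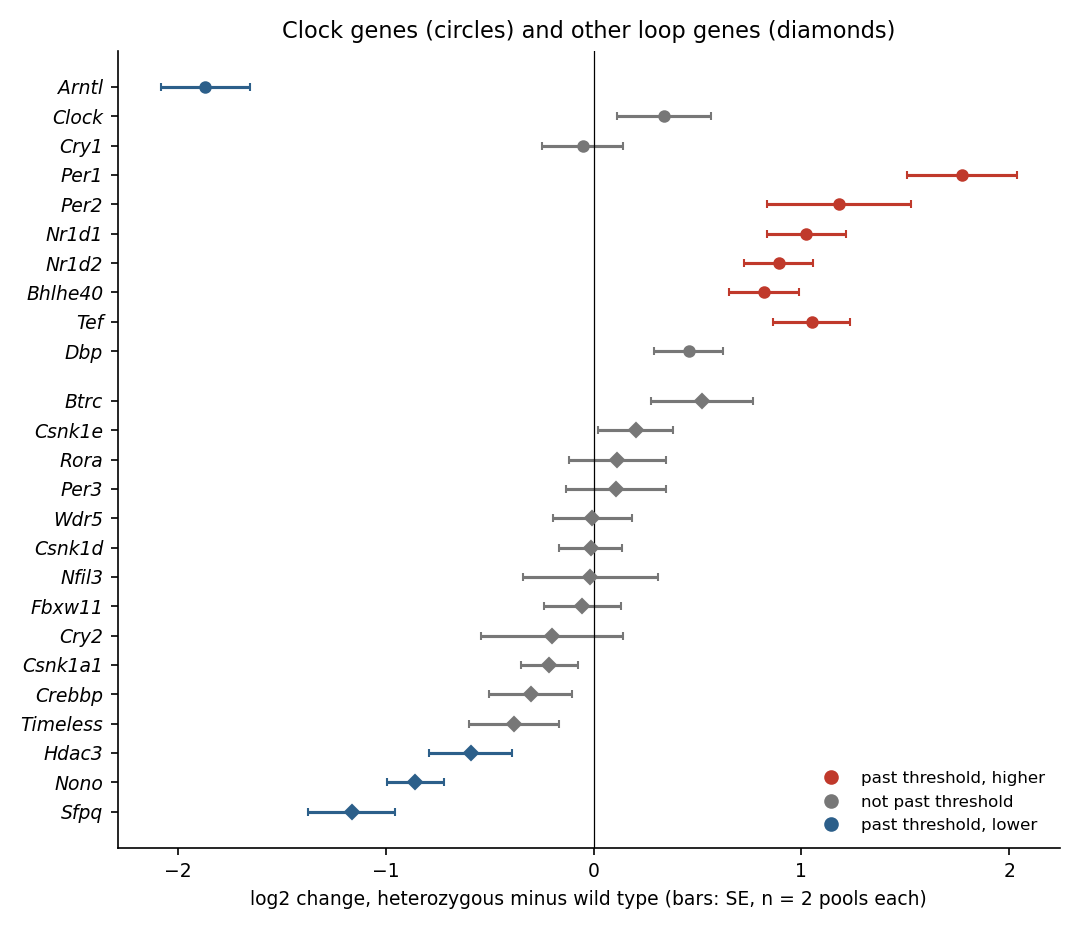
Log2 change (heterozygous minus wild type, with SE) of the 10 clock genes, as circles, and of 15 other genes of the loop, as diamonds, 1 probe set per gene and 2 pools per genotype. Arntl stands alone on the left at -1.87, 6 clock genes lie between 0.82 and 1.77, and the other loop genes lie between -1.16 and 0.52.

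Grouped by the time of day at which the messenger RNA is known to peak, the 7 genes of day and dusk (Per1, Per2, Nr1d1, Nr1d2, Bhlhe40, Tef and Dbp) had a mean log2 change of 1.03, or 2.04-fold. Set against Arntl within each array, the mean of these 7 genes was higher than in the average wild-type pool by 2.95 and 2.85 log2 units in the heterozygous pools. The wild-type pools lay 0.08 above and below their own mean. The 7.45-fold mean difference does not depend on how arrays were scaled to each other by a constant. Arntl and the 7 genes were chosen with this comparison known, so the difference is a description and not a test. Against Cry1 within the array, the same 7 genes were 2.11-fold higher in heterozygous pools, and against Clock 1.61-fold.

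The size of single changes does depend on the scaling, as does the direction for Clock, Dbp and Cry1. Across the 7454 tested probe sets the median change was 0.00 (log2) as deposited, 0.18 with arrays at a common median, 0.10 under quantile normalization, 0.02 under cyclic loess and -0.63 with arrays centred on cardiomyocyte markers. Arntl was lower under all 5, between -2.50 and -1.69, and passed under each. Per1, Per2, Nr1d1, Nr1d2, Bhlhe40 and Tef stayed above 0 under all 5, although only Per1 passed with the cardiomyocyte centring (1.14), where Per2 was at 0.55, Tef at 0.42, Nr1d1 at 0.39, Nr1d2 at 0.26 and Bhlhe40 at 0.19. Cry1 was at -0.05 on the deposited scale, at 0.13 with a common median and at -0.68, past the threshold, with the cardiomyocyte centring. That last scaling shifts each array by a constant, so values relative to the median of all probe sets must be those of the deposited scale. Examples are -1.87 for Arntl, 1.77 for Per1 and 0.46 for Dbp.

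**Figure D3:**
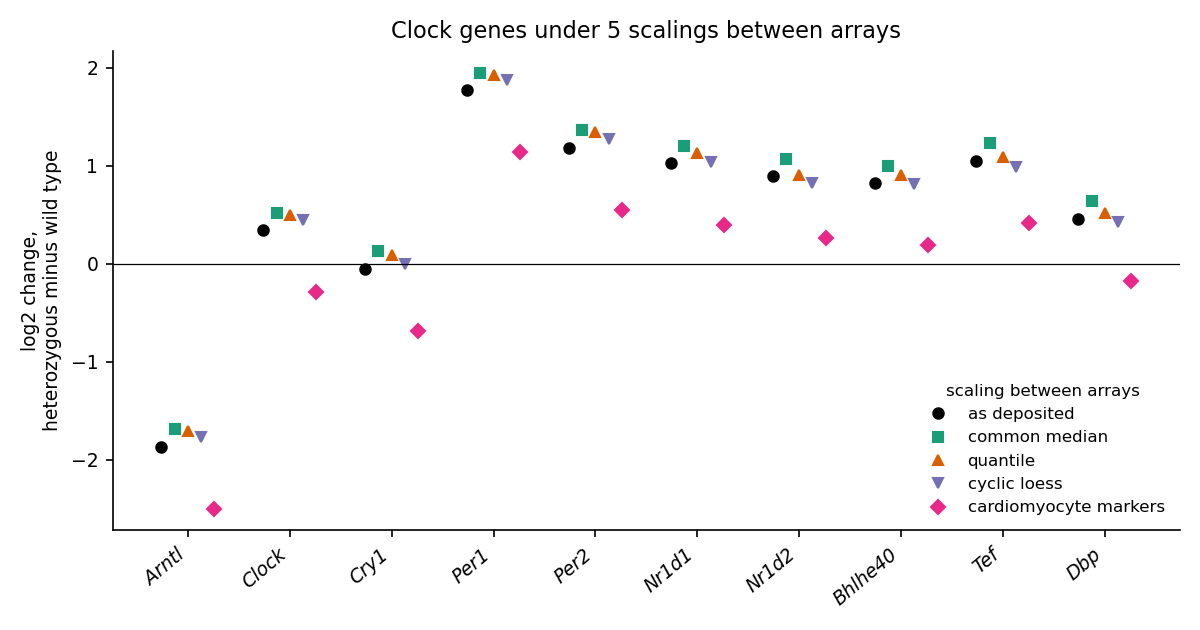
Log2 change (heterozygous minus wild type) of the 10 clock genes under 5 ways of scaling arrays to each other, one symbol per scaling. Arntl lies between -2.50 and -1.69 and Per1 between 1.14 and 1.95, while Clock, Dbp and Cry1 lie on both sides of 0.

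Of the other genes of the loop, 3 fell and 0 rose, where 20.4% of all tested probe sets were called lower and 17.9% higher. The list held 29 such loop genes. Of these, 17 had a probe set and 15 were tested on their brightest one. The share of the 15 that fell was near the share of all, and 12 of the 15 did not pass. In limma's fit 0 were higher and 3 lower at an unadjusted p under 0.05 as well. The median log2 change of the 15 was -0.05, against 0.00 over all tested probe sets. With every tested probe set counted, 8 of 23 fell and 0 rose. With arrays centred on cardiomyocyte markers 9 of the 15 genes fell. Under that centring 3859 of all 7454 tested probe sets were called lower, and the median log2 change over all 7454 was -0.63.

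The 3 that fell are regulators of the loop. Nono, which binds PER complexes and RNA, had signals of 4921.0 and 4808.6 in heterozygous pools, against 8753.8 and 8869.9 in wild-type pools (log2 change -0.86, SE 0.14, limma adjusted p = 0.00152). Its partner Sfpq had signals of 1590.5 and 1201.7 in heterozygous pools, against 3547.4 and 2708.2 in wild-type pools (log2 change -1.16, SE 0.21, limma adjusted p = 0.00266). Pools did not overlap for either gene, and a second Nono probe set and 3 further Sfpq probe sets fell too. Another Sfpq probe set, too dim to be tested, was higher in heterozygous pools (89.2 and 118.3) than in wild-type pools (72.0 and 29.0). The Sfpq call ended with no filter on dim probe sets. The lymphocyte and thymus markers (16 of 17) and the markers of dividing cells (10 of 10, with a sum 5.74-fold higher in wild type) fell in the same pools, and their part in the lower Nono, Sfpq and Hdac3 signals was not tested. Hdac3, the deacetylase that the REV-ERB receptors recruit through a corepressor, had a log2 change of -0.59 (SE 0.20, limma adjusted p = 0.0445). It did not pass with no filter on dim probe sets or with only the lowest 20% left out. Nor did it pass without the trend in limma's fit or with the pool number as a block. The Hdac3 call ended under each of quantile normalization (-0.45), cyclic loess (-0.53) and the common median (-0.41), and without heterozygous pool 1 (-0.38), wild-type pool 1 (-0.54) or wild-type pool 2 (-0.64).

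Relatives of the clock genes above, and the factors that oppose or replace them at the same elements, did not pass or were too dim to be tested. Per3, of the Period family, had signals of 641.3 and 627.5 in heterozygous pools and of 557.3 and 620.9 in wild-type pools (log2 change 0.11, SE 0.24, limma adjusted p = 0.754). For Cry2 the signals were 372.3 and 610.4 in heterozygous pools and 666.3 and 451.2 in wild-type pools, with overlap (log2 change -0.20, SE 0.34, limma adjusted p = 0.678). Nfil3, which opposes DBP and TEF at D-boxes, had a log2 change of -0.02 (SE 0.32) and Rora, an activator of Arntl, one of 0.11 (SE 0.23). Whether Per3 differed from Per1 or Per2 was not tested. Npas2, which can stand in for CLOCK, was too dim to be tested, with signals of 20.8 and 46.2 in heterozygous pools and of 21.7 and 18.4 in wild-type pools.

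The kinases and ubiquitin ligases that set how long PER and CRY proteins last did not pass on their brightest probe sets. Csnk1e, which phosphorylates PER, had a log2 change of 0.20 (SE 0.18), Csnk1a1 one of -0.21 (SE 0.14) and Fbxw11 one of -0.05 (SE 0.18). Btrc, of a ligase that acts on PER, had a log2 change of 0.52 (SE 0.25, limma adjusted p = 0.126). It passed as higher with arrays at a common median (0.70). With cardiomyocyte centring Csnk1a1 (-0.84), Csnk1d (-0.64) and Fbxw11 (-0.68) passed as lower, as did 3859 of all 7454 tested probe sets. For Csnk1d, another PER kinase, probe sets disagreed: the brightest had a log2 change of -0.01 (SE 0.15), while a second fell (-0.79, SE 0.16, limma adjusted p = 0.00506).

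Of genes known as rhythmic or clock-controlled outputs, 8 of 11 tested rose, 1 fell and 2 did not pass (limma, adjusted over all tested probe sets, of which 17.9% were called higher). Their median log2 change was 0.80, against 0.00 over all tested probe sets. The list held 16 genes and was drawn up with earlier results of these data known, those for Pdk4 among them; without Pdk4, 7 of 10 rose and 1 fell. With every probe set counted, 10 of 16 rose and 1 fell. The number called was 5, all higher, without heterozygous pool 1, and 4 (3 higher, 1 lower) with no filter on dim probe sets. With arrays centred on cardiomyocyte markers, whose own sum was 1.49-fold higher in heterozygous pools as deposited, 4 rose and 2 fell. Median log2 changes of marker lists were also above 0 for cardiomyocytes (0.65), fibroblasts (0.82), endothelium (1.12), smooth muscle (0.42), lung epithelium (1.78) and erythroid cells (0.57). They were near 0 for macrophages (-0.07) and adipocytes (-0.04). Lymphocyte and thymus (-3.08), dividing cell (-3.03) and fast skeletal muscle (-0.96) markers lay below 0. The part of these cells in the output signals was not tested.

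**Figure D4:**
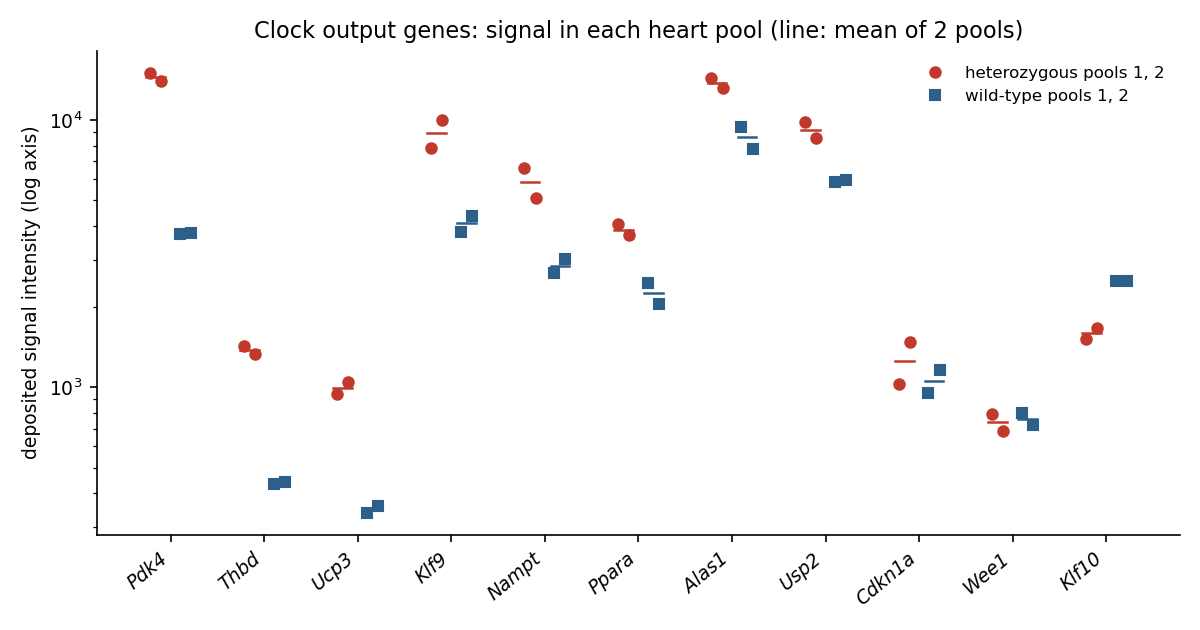
Signal of the brightest probe set of each clock output gene in every pool, on a log axis; red circles are the 2 heterozygous pools, blue squares the 2 wild-type pools, and lines are means. In the 8 genes on the left both red circles lie above both blue squares, in Klf10 on the right both lie below, and in Cdkn1a and Wee1 they overlap.

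Pdk4 encodes a kinase that inhibits the pyruvate dehydrogenase complex and had signals of 15033.1 and 13990.6 in heterozygous pools, against 3743.1 and 3771.5 in wild-type pools (log2 change 1.95, SE 0.14); it was listed with this rise known, so no p is given. Ucp3, a mitochondrial carrier of muscle, had signals of 945.7 and 1045.2 in heterozygous pools, against 339.3 and 358.0 in wild-type pools (log2 change 1.51, SE 0.25, limma adjusted p = 0.00171). In both genes the pools of one genotype lay close together. Ucp3, with a wild-type mean of 349, passed the filter on dim probe sets only through its heterozygous pools. The rest of the list was also drawn up with earlier results known, so the adjusted p values of its genes describe the fit only. Nampt, the rate-limiting enzyme of NAD salvage, had signals of 6591.3 and 5084.8 in heterozygous pools and of 2676.7 and 3006.4 in wild-type pools (log2 change 1.03, SE 0.17, limma adjusted p = 0.00206). Ppara, the fatty acid-sensing nuclear receptor, had a log2 change of 0.80 (SE 0.17, limma adjusted p = 0.00549), and Alas1, the first enzyme of heme synthesis, one of 0.68 (SE 0.15, limma adjusted p = 0.00724). The Ppara call ended without heterozygous pool 1 (0.73), and that of Alas1 without either heterozygous pool (0.62 without pool 1, 0.74 without pool 2). Nampt, Ppara and Alas1 did not pass with cardiomyocyte centring (0.40, 0.17 and 0.05) or with no filter on dim probe sets.

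Usp2, a ubiquitin protease with a strong daily rhythm, rose on both of its probe sets. The brighter one had signals of 9794.0 and 8572.2 in heterozygous pools and of 5845.6 and 5975.0 in wild-type pools (log2 change 0.63, SE 0.14, limma adjusted p = 0.00815), a call that ended without heterozygous pool 1 (0.54), with cardiomyocyte centring (0.00) and with no filter. On the dimmer one the log2 change was 1.30 (SE 0.16, limma adjusted p = 4.2e-04). Klf9, a Krüppel-like factor that also responds to glucocorticoids, had signals of 7891.5 and 9990.2 in heterozygous pools, against 3822.5 and 4380.8 in wild-type pools (log2 change 1.12, SE 0.17, limma adjusted p = 0.00109), a call that ended with no filter on dim probe sets. Thbd, the endothelial thrombin receptor thrombomodulin, had signals of 1424.2 and 1330.8 in heterozygous pools, against 433.5 and 441.3 in wild-type pools (log2 change 1.65, SE 0.21, limma adjusted p = 5.2e-04). On a second Thbd probe set the log2 change was 0.23 (SE 0.22), which did not pass. This second probe set was the brighter one in wild-type pools (mean 762 against 437) and the dimmer one in heterozygous pools (892 against 1378). Thbd was thus counted among the outputs that rose on a probe set that was the brightest only through its heterozygous signals. Wee1, a cell cycle kinase with E-boxes, had overlapping pools, with signals of 791.7 and 685.9 in heterozygous hearts and of 797.9 and 721.6 in wild-type hearts. Klf10 fell (log2 change -0.65, SE 0.16, limma adjusted p = 0.0129), a call that ended with arrays at a common median (-0.47), without wild-type pool 1 (-0.65) or without heterozygous pool 1 (-0.59). On a second, dimmer Klf10 probe set the log2 change of -0.61 (SE 0.23, limma adjusted p = 0.0694) did not pass. Cdkn1a, a cell cycle inhibitor, had a log2 change of 0.23 (SE 0.23).

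By likeness of pattern over the 4 pools (the Euclidean distance between log2 signals centred on each probe set's own mean), the tested probe sets nearest to Arntl were those of Mt4 (distance 0.05), Irf8 (0.11) and Cdt1 (0.11). Irf8 is a transcription factor of blood cells and Cdt1 licenses DNA replication. Irf8 had signals of 792.3 and 785.9 in heterozygous pools, against 2796.4 and 2647.5 in wild-type pools. The nearest to Dbp were Lrpprc (distance 0.01), Mypop (0.04) and P3h4 (0.04). With only 4 pools such a distance describes these arrays and nothing more.

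The tissue carried its label: 11 of 12 cardiomyocyte markers were on the array, 10 of them rose, and their summed signal was 849915 to 881792.5 in heterozygous pools and 549820 to 609712 in wild-type pools. Markers of other cells moved with the genotype too. Of 17 lymphocyte and thymus markers on the array (19 listed) 16 fell, none was below the 10th percentile in all pools, and the summed signal given above was 7.75-fold higher in wild type. All 10 markers of dividing cells on the array (12 listed) fell (8793 to 9416 in heterozygous pools, 51148 to 53426 in wild-type pools). Endothelial markers summed to 16035 to 16641 in heterozygous pools and 7310 to 7329 in wild-type pools, and 6 of 7 rose. Of 5 fast skeletal muscle markers 4 fell, with sums of 7258 to 7319 in heterozygous pools against 15202 to 15230 in wild-type pools. All 6 fibroblast markers, 2 of 2 tested lung epithelium markers, 1 of 4 smooth muscle markers and 1 of 2 erythroid markers rose, 1 of 6 tested macrophage markers fell, and 0 of 4 adipocyte markers passed (0 also at an unadjusted limma p under 0.05). The part of these cells in the higher Per, Nr1d, Bhlhe40 and Tef signals, and in those of the output genes, was not tested either.

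**Figure D5:**
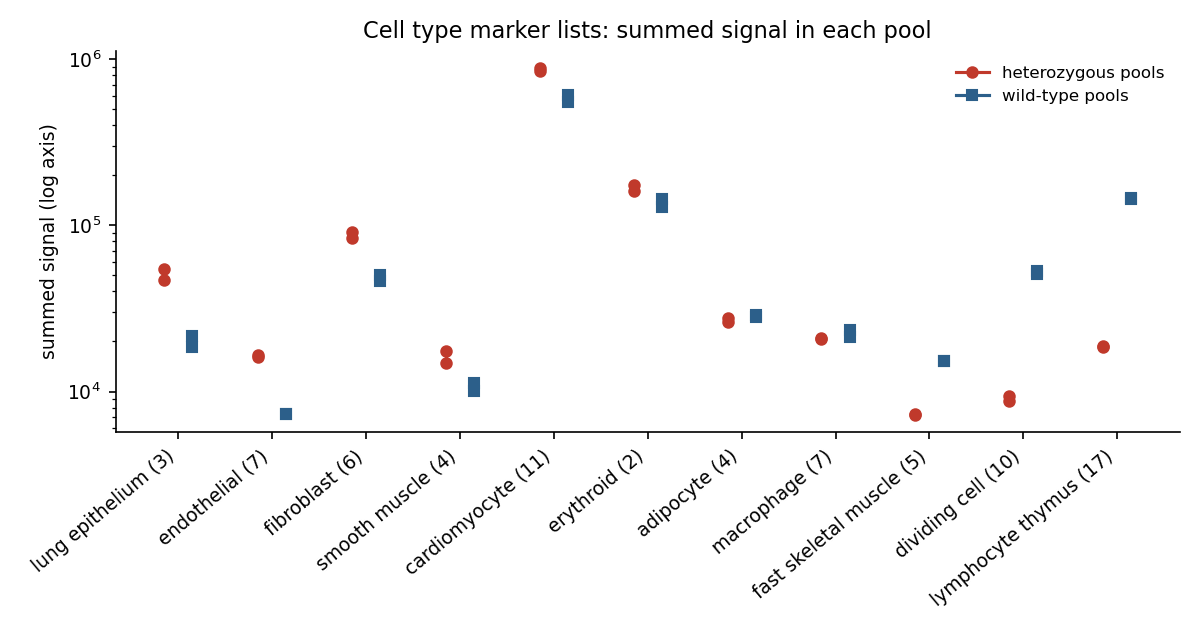
Summed signal of cell type marker lists in each pool, on a log axis, with the number of markers on the array in brackets; red circles are heterozygous pools and blue squares wild-type pools. Lists run from the highest ratio of heterozygous to wild-type pools on the left (lung epithelium, 2.53) to the lowest on the right (lymphocyte and thymus, 0.129).

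Over all tested probe sets, log2 signals correlated at 0.970 between heterozygous pools, at 0.971 between wild-type pools and at 0.845 to 0.856 between genotypes, across probe sets, which are not independent. Of the 7454 tested, 2856 were called, 1337 higher and 1519 lower in heterozygous pools. Higher calls made up 46.8% of them, 62.5% with arrays at a common median and 4.95% with arrays centred on cardiomyocyte markers.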

How the data were processed

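The deposited values are linear signal intensities of the authors, 1 per probe set and array; the labels and files do not name the software that made them. Their trimmed means (2% off each end) ran from 1485 to 1500 on the 4 arrays, a ratio of 1.01, and they were used as deposited. The 66 control probe sets, which carried no value in heterozygous pool 2, were removed. Signals below the 10th percentile (36.4) were raised to it, log2 was taken, and the 40% of probe sets with the lowest mean were not tested, which left 7454 of 12422. limma 3.58.1 (lmFit, eBayes with a trend; R 4.3.3) was fitted with genotype as the only term, two-sided, with Benjamini-Hochberg adjustment and a threshold of 0.05. The script was checked on simulated data. With 2 pools per genotype the smallest two-sided p of an exact permutation test is 0.333, and the number of arrays limits the precision.

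Names come from the platform annotation: 10855 probe sets carried 1 symbol, 396 several and 1237 none, and only those with 1 were named. Gene lists were counted on the brightest probe set of each gene, by the mean over the pools of both genotypes. Named are all 10 clock genes, genes of the lists of other clock genes and outputs, and the 3 nearest patterns to Arntl and to Dbp. The clock genes, lists, markers and motifs were chosen with earlier results of these data known. Other scalings, floors, filters, moderation, the pool number as a block and leaving out each pool were tried. Promoters are from RefSeq (GRCm38.p6). Plots were drawn with matplotlib 3.10.9.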

Additional observations from a re-analysis of the deposited data

How the results depend on the processing

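The number of probe sets called was 2856. Separate fits called 1205 without the filter on dim probe sets (of 12422 tested) and 1705 to 2285 with 1 pool left out (lowest without heterozygous pool 1, with 36.9% of calls higher; 1708 without heterozygous pool 2, also 36.9%). The clock genes had 7 calls: 3 with arrays centred on the cardiomyocyte markers, 1 without the filter, and 6 to 7 with 1 pool left out. The other loop genes had 3 calls: 9 with that centring, 1 without the filter, 8 with every probe set counted, and 2 to 3 with 1 pool left out. The outputs had 9: 4 without the filter and 5 to 9 with 1 pool left out, lowest without heterozygous pool 1; 8 without Pdk4, an alternative chosen after seeing the data. The causes were not tested. The pool numbers are not stated to pair samples. Deviations of same-numbered pools correlated at 0.16, and with the pool number as a block 3035 probe sets, 8 clock genes (Dbp added), 2 other loop genes (Hdac3 lost) and 9 outputs were called. Counts stayed within 1.5 times under the other alternatives. Arntl was called lower in all 15 alternatives, with log2 changes of -2.50 to -1.69. The other floors, filters and moderation and the block left its log2 change at -1.87, so they bear only on its call. Precision is limited by 2 pools per genotype.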
